A study of Sus scrofa with 22 samples.

Results

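CD8A, CD3E, LCK, CD96, GZMA, GZMB and CCL5, genes of cytotoxic T cells and natural killer (NK) cells, were followed in the small intestine of 22 piglets after chemotherapy. They are 7 of the 24767 genes that could be tested on a pig expression array, and 12 of its probes carry their names. Of these 24767, 2653 had a gene symbol. The rest were counted by probe accession, so a gene may be counted more than once. Shares of all genes below count these accessions as genes. The 7 genes were chosen by their measured log2 differences between treated and untreated piglets on these same arrays, so their treated and untreated levels are given below as a description, without p-values. All 7 were bright enough to be tested, and each is represented by its brightest probe.

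The tissue came from 2 separate experiments on specific-pathogen-free Large White × Danish Landrace piglets described as 3 days old, without saying whether at treatment or at sampling. In the first, 6 piglets received doxorubicin (DOX, a topoisomerase II inhibitor, given once) and 6 were untreated controls. In the second, 5 piglets received busulfan plus cyclophosphamide (BUCY, alkylating drugs that are combined before marrow transplantation) and 5 were untreated controls. All had suckled before the experiments, and the drugs were infused through a catheter in the jugular vein. The sources used here give no dose, sampling time or stretch of small intestine. Every array carried 1 piglet's RNA in Cy5 beside a Cy3 pool of all samples, and dyes were never swapped. A log2 ratio of 0 therefore means the level of the pool, and groups are compared by differences of these ratios. The number of arrays limits the precision.

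Cytotoxic T cells carry an antigen receptor joined to the CD3 chains and, beside it, the CD8 co-receptor, which brings the kinase LCK to the receptor. NK cells lack that receptor and kill through other surface receptors. Both kinds of cell store granzymes in granules and release them into a target cell, and both secrete the chemokine CCL5. In the intestine such cells lie among the epithelial cells and in the tissue below. In whole tissue, fewer such cells and less RNA per cell cannot be told apart.

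On the 22 arrays, 59.7% to 72.5% of probes had a Cy5 signal well above background, and the brightest probes of the 7 genes were above it on 20 to 22 arrays. Log2 ratios of array pairs correlated at 0.10 to 0.83 within a group and down to -0.37 between groups, with piglets in Cy5 on every array per the labels. BUCY treated piglets 2 and 3 stood apart from the other BUCY treated piglets. Their mean log2 ratio over 13 enterocyte genes was -1.29 and -2.12, against -0.53 to 0.54 on the other 20 arrays, and main results are also given without them. BUCY treated piglet 3 also had the fewest probes above background, 59.7%. The 22 arrays lay on 7 slides and were scanned on 3 days, and 3 slides held treated and untreated piglets of each experiment.

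All 7 genes had a lower mean after either drug. After DOX the means lay from -0.19 to -1.005 log2 units away from the untreated mean, with CD8A and LCK moving most and CD96 least. After BUCY the differences ran from -0.92 for CD8A to -2.37 for GZMA, with CCL5 next at -2.25. The median of the 7 differences was -0.82 after DOX and -1.37 after BUCY, beside 0.0077 and -0.0012 over all tested genes. After BUCY every treated piglet was below every untreated piglet for 7 of 7 genes, which 3.34% of all genes showed in that direction. After DOX this held for 2 of 7 genes, CD8A and LCK, beside 1.38% of all genes. Since the choice of the genes used these comparisons, the shares are given only as background.

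**Figure D1:**
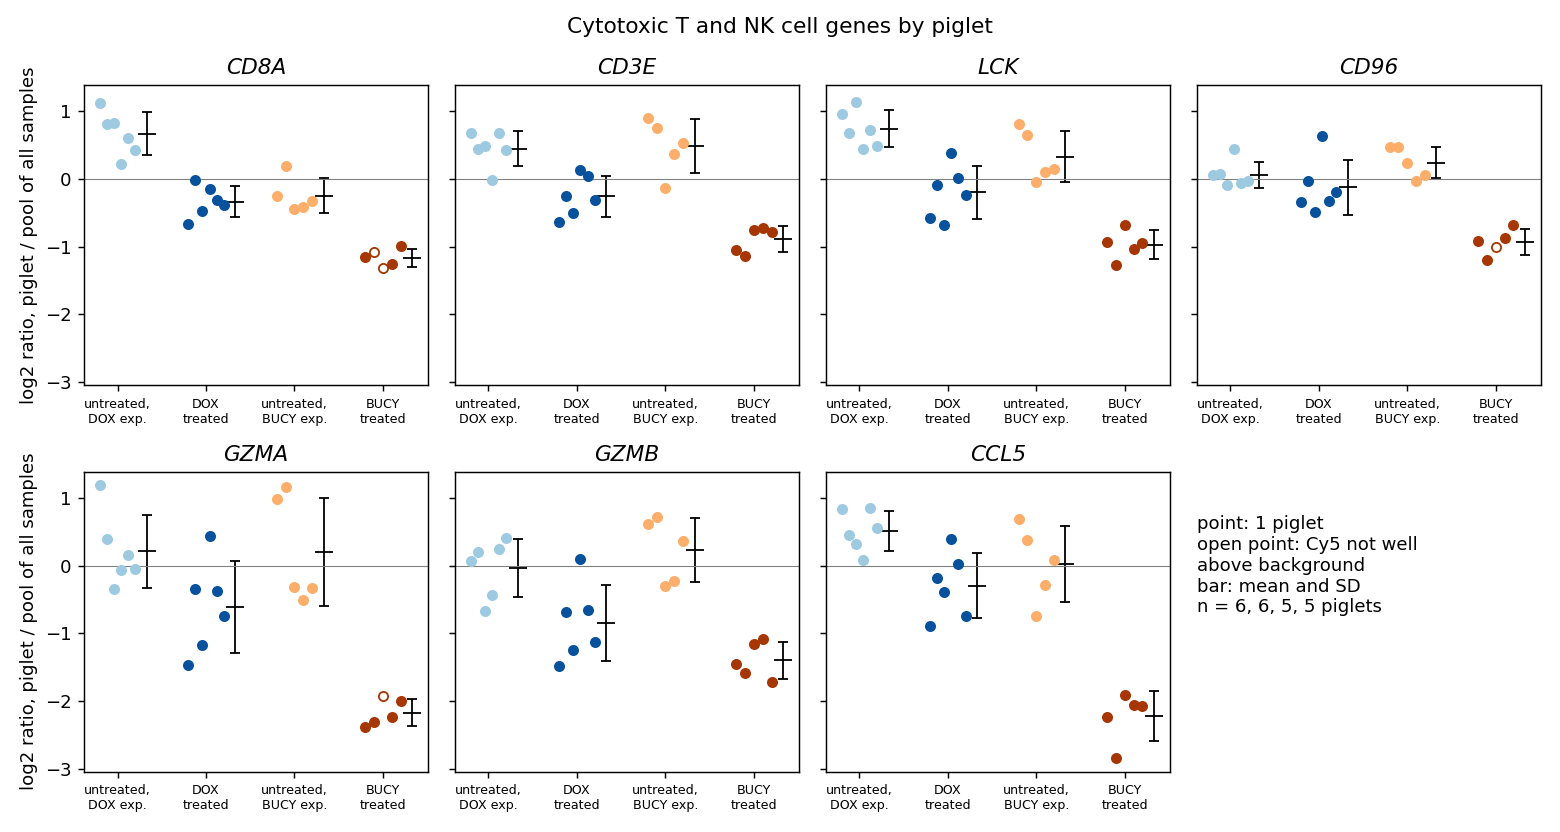
Log2 ratio of the piglet's RNA to the pool for CD8A, CD3E, LCK, CD96, GZMA, GZMB and CCL5 (vertical axis) in the 4 groups (horizontal axis), 1 point per piglet, with the mean and SD of each group beside the points and open points where Cy5 was not well above background. All BUCY treated piglets lie below all untreated piglets of their experiment for each gene, and DOX treated piglets overlap their controls for every gene except CD8A and LCK.

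CD3E is a chain of the CD3 complex, through which the T cell receptor signals. In DOX controls its log2 ratio ran from -0.02 through a median of 0.46 to 0.69, and in DOX treated piglets from -0.63 through -0.28 to 0.13. The groups overlapped only through untreated piglet 4, the lowest of the controls, and all 6 treated piglets were below the untreated mean. Controls of the BUCY experiment read 0.91, 0.76, -0.13, 0.38 and 0.53, and BUCY treated piglets -1.04, -1.13, -0.75, -0.72 and -0.78. The BUCY groups were apart. The mean fell by 0.71 (SE 0.162) from 0.45 ± 0.26 to -0.25 ± 0.30 (SD, n = 6 and 6) after DOX, a 1.63-fold lower level. After BUCY it went from 0.49 ± 0.40 to -0.88 ± 0.19 (SD, n = 5 and 5), a difference of -1.37 (SE 0.178) or 2.59-fold.

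CD8A is the chain that both forms of the CD8 co-receptor share, and some NK cells of pigs carry it too. Untreated piglets of the DOX experiment ran from 0.23 through 0.72 to 1.13, and DOX treated piglets from -0.67 through -0.34 to -0.01. Every treated piglet was below every untreated one. Untreated piglets of the BUCY experiment read -0.25, 0.20, -0.44, -0.42 and -0.32, at the level of the DOX treated piglets, and BUCY treated piglets read -1.16, -1.08, -1.32, -1.26 and -0.997. The probe was well above background in 3 of these 5 treated piglets. The differences were -1.005 (SE 0.139), or 2.01-fold, after DOX and -0.92 (SE 0.153), or 1.89-fold, after BUCY. Group means were 0.67 ± 0.32 untreated and -0.33 ± 0.23 treated in the DOX experiment (SD, n = 6 and 6), and -0.25 ± 0.26 and -1.16 ± 0.13 in the BUCY experiment (SD, n = 5 and 5).

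LCK is the kinase that phosphorylates the CD3 chains when the receptor is engaged. Its log2 ratio in untreated piglets of the DOX experiment ran from 0.45 through 0.70 to 1.14, and in DOX treated piglets from -0.68 through -0.16 to 0.39. The groups did not overlap, and the gap between DOX treated piglet 4 and the lowest control was narrow. In the BUCY experiment untreated piglets read 0.81, 0.65, -0.05, 0.10 and 0.14, and treated piglets -0.94, -1.27, -0.68, -1.04 and -0.94. Again no treated piglet reached the controls. The DOX difference was -0.94 (SE 0.177), from 0.74 ± 0.27 to -0.20 ± 0.39 (SD, n = 6 and 6), and the BUCY difference -1.30 (SE 0.194), from 0.33 ± 0.38 to -0.97 ± 0.21 (SD, n = 5 and 5).

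CD96 is a surface receptor of T and NK cells that binds the adhesion molecule CD155. It was the member with the least movement after DOX. Untreated piglets ran from -0.09 through 0.01 to 0.44 and DOX treated piglets from -0.49 through -0.26 to 0.63, so the highest value of all 12 was that of a treated piglet, piglet 4. The DOX difference was -0.19 (SE 0.151), from 0.06 ± 0.20 to -0.12 ± 0.40 (SD, n = 6 and 6). In the BUCY experiment untreated piglets read 0.47, 0.47, 0.24, -0.02 and 0.06, and treated piglets -0.91, -1.20, -1.01, -0.87 and -0.68, all below the controls. The BUCY difference was -1.18 (SE 0.166), or 2.26-fold, from 0.24 ± 0.23 to -0.93 ± 0.19 (SD, n = 5 and 5). In BUCY treated piglet 3 the probe was not well above background.

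GZMA, a tryptase-like granzyme, had the largest difference of the 7 after BUCY and the widest spread among untreated piglets. Untreated piglets of the BUCY experiment fell apart into piglets 1 and 2, at 0.98 and 1.17, and piglets 3, 4 and 5, at -0.31, -0.50 and -0.32. BUCY treated piglets read -2.39, -2.31, -1.92, -2.24 and -1.997, below all of them, with piglet 3 not well above background. The mean went from 0.20 ± 0.80 to -2.17 ± 0.20 (SD, n = 5 and 5), a difference of -2.37 (SE 0.351) or 5.18-fold. In the DOX experiment untreated piglets ran from -0.35 through 0.05 to 1.19 and treated piglets from -1.46 through -0.56 to 0.44, with wide overlap. The DOX difference was -0.82 (SE 0.320), from 0.21 ± 0.54 to -0.61 ± 0.68 (SD, n = 6 and 6). RefSeq lists 2 pig loci under the symbol GZMA, and RNA of both may bind the probe.

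GZMB, the granzyme that cleaves after aspartate and activates caspases, ran from -0.67 through 0.14 to 0.41 in untreated piglets of the DOX experiment and from -1.48 through -0.90 to 0.09 in treated ones. Treated piglet 4 lay within the range of the controls, as did the treated piglet nearest to it. In the BUCY experiment controls read 0.62, 0.72, -0.30, -0.23 and 0.37, and treated piglets -1.46, -1.58, -1.15, -1.09 and -1.71. These groups were apart. The differences were -0.82 (SE 0.244), or 1.76-fold, after DOX and -1.63 (SE 0.267) after BUCY. The means were -0.03 ± 0.43 and -0.85 ± 0.56 in the DOX experiment (SD, n = 6 and 6), and 0.23 ± 0.48 and -1.40 ± 0.27 in the BUCY experiment (SD, n = 5 and 5). GZMB and GZMH are close in sequence, so their probes may share signal.

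CCL5, a chemokine that draws T cells, monocytes and eosinophils, ran from 0.09 through 0.51 to 0.85 in untreated piglets of the DOX experiment and from -0.88 through -0.28 to 0.40 in treated ones. The 2 ranges overlapped through treated piglet 4. BUCY controls read 0.70, 0.39, -0.74, -0.29 and 0.08, and treated piglets -2.23, -2.84, -1.91, -2.06 and -2.07. The highest treated piglet was more than 1 log2 unit below the lowest control. The DOX difference was -0.82 (SE 0.234), from 0.52 ± 0.30 to -0.30 ± 0.48 (SD, n = 6 and 6). The BUCY difference was -2.25 (SE 0.256), or 4.76-fold, from 0.03 ± 0.56 to -2.22 ± 0.37 (SD, n = 5 and 5).

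Ordered by group mean, BUCY treated piglets were lowest for each of the 7 genes. For CD8A, CD3E, CD96, GZMA and CCL5 they did not overlap DOX treated piglets, next above them, and for LCK and GZMB they did. Both untreated groups had higher means than both treated groups for each of the 7 genes. For CD8A the untreated BUCY group and the DOX treated group were only 0.09 apart and overlapped. The means of the untreated groups differed by less than the larger of their SDs for CD3E, CD96, GZMA, GZMB and CCL5.

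The size of the differences varied from slide to slide. Within the 3 slides that held both DOX groups, the difference ran from -1.64 to -0.51 for CD8A, from -1.40 to -0.39 for LCK, from -1.20 to -0.025 for CD3E and from -1.53 to -0.20 for CCL5. For GZMA it ran from -2.25 to -0.0031, for GZMB from -1.62 to -0.013 and for CD96 from -0.40 to 0.06. Within the 3 slides that held both BUCY groups all 7 genes were lower on every slide, from -0.87 to -0.67 for CD8A, -2.15 to -1.49 for CCL5 and -2.08 to -1.58 for GZMA. With slide as a block the median over the 7 genes was -0.82 after DOX and -1.17 after BUCY. Without BUCY treated piglets 2 and 3 the BUCY differences were -0.89 for CD8A, -1.06 for CD96, -1.30 for LCK, -1.33 for CD3E, -1.65 for GZMB, -2.15 for CCL5 and -2.41 for GZMA. With the scanner software's own log ratio in place of the loess values, the BUCY differences were larger for CD8A (-2.35), LCK (-2.33), CD96 (-2.36) and GZMA (-3.83).

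In the authors' deposited table of log2 ratios the group means of the 7 genes lay within 0.11 of those given here. There the differences between treated and untreated piglets ran from -0.97 to -0.19 after DOX and from -2.51 to -1.02 after BUCY.

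Another probe exists for 5 of the genes, and it did not always follow. The other probe of GZMA (r = 0.99 with the brightest over 22 arrays) and that of GZMB (r = 0.97) gave DOX differences of -0.78 and -0.90 and BUCY differences of -1.97 and -2.35, with the BUCY groups apart for both. The other CCL5 probe (r = 0.90) gave -0.58 after DOX and -1.11 after BUCY, and its BUCY groups overlapped. The other LCK probe was above background on all 22 arrays (r = 0.70) and gave only -0.24 after DOX and -0.06 after BUCY, with overlap in both experiments. The other CD8A probe was above background on 10 of 22 arrays (r = 0.43) and gave -0.13 and -0.04. The cause of the gap between the probes of LCK and of CD8A was not tested, and CD3E and CD96 have 1 probe each that carries their name.

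**Figure D2:**
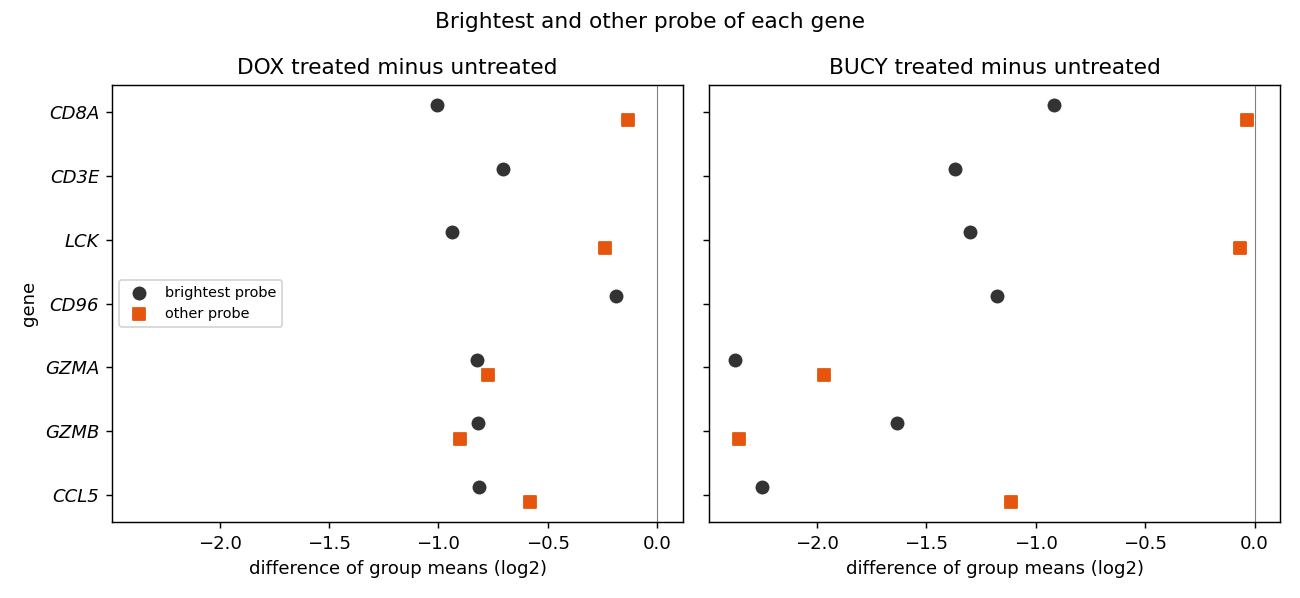
Difference of group means in log2 units (horizontal axis) for the brightest probe (circles) and the other probe (squares) of each gene (vertical axis), DOX on the left and BUCY on the right. The other probes of GZMA, GZMB and CCL5 lie on the same side of 0 as the brightest, and those of LCK and CD8A lie close to 0.

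The design also sets the drugs against each other, through the BUCY difference minus the DOX difference. For the 7 genes it is made of the same differences that chose them, so it is given as a description with no test. It was -1.55 for GZMA (SE 0.475), -1.43 for CCL5 (SE 0.347) and -0.99 for CD96 (SE 0.224). CD96 was lower than the untreated mean in 5 of 5 BUCY treated and 5 of 6 DOX treated piglets, and CCL5 in 5 of 5 and 6 of 6. GZMB was at -0.81 (SE 0.362) and CD3E at -0.67 (SE 0.241). LCK was at -0.36 (SE 0.263) and CD8A at 0.09 (SE 0.207).

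The processing moved these values. CD8A turned to -1.01 with the scanner software's log ratio and to -1.55 with limma's background method that floors low signals. In the authors' deposited table it was at -0.05, so its SE covers the spread between piglets only. With the scanner software's log ratio CD96 was at -2.12, GZMA at -2.82 and LCK at -1.16. With slide as a block CCL5 was at -1.12, GZMA at -1.06, CD96 at -0.69 and LCK at 0.05. Without BUCY treated piglets 2 and 3 the values were -1.59 for GZMA, -1.33 for CCL5, -0.88 for CD96, -0.83 for GZMB, -0.63 for CD3E, -0.36 for LCK and 0.11 for CD8A.

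The controls of the 2 experiments, which share no animals, were compared to see whether the experiments began from the same level. These piglets also entered the differences that chose the 7 genes. CD8A was lower in the BUCY experiment by 0.92 log2 units (SE 0.146, limma adjusted p = 8.40e-05), a 1.89-fold gap, with every piglet below every untreated piglet of the DOX experiment. It was the only one of the 7 genes to pass, beside 12.2% of all genes lower past the threshold, and 2227 of 24732 genes had no overlap in that direction. On the 2 slides that held both groups the CD8A gap was -0.86 and -0.84, and with slide as a block -0.88 (limma adjusted p = 0.00151). The other CD8A probe, above background on 10 arrays, gave a gap of only -0.10. Averaging all CD8A probes gave -0.51 (limma adjusted p = 1.30e-04). LCK was at -0.41 (SE 0.186, limma adjusted p = 0.111) and passed without BUCY untreated piglet 1 (limma adjusted p = 0.045). CCL5 was at -0.49 (limma adjusted p = 0.154), GZMB at 0.26 (0.512), CD96 at 0.18 (0.458), CD3E at 0.04 (0.913) and GZMA at -0.01 (0.989). In all, 25.2% of genes passed in either direction, and experiment, time and handling cannot be told apart here.

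Some piglets held the same place in their group for most of the genes, and others did not. DOX treated piglet 4 was the highest of its group for 6 of the 7 genes, and DOX treated piglet 1 the lowest for 5. In the untreated BUCY group piglets 1 and 2, on the same slide, were the highest for 3 and 4 genes, and piglet 3 the lowest for 5. BUCY treated piglet 2 was the lowest of its group for 4 genes, while piglet 3 was the highest for 3 and the lowest for 1. Untreated piglets of the DOX experiment changed places. There piglet 4 was the lowest for 4 genes and the highest for 1, and piglet 3 the lowest for 3 and the highest for 1. The mean of the 7 log2 ratios ran from -0.86 to 0.27 in DOX treated piglets, from 0.10 to 0.71 in their controls, from -1.63 to -1.25 in BUCY treated piglets and from -0.25 to 0.62 in their controls.

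**Figure D3:**
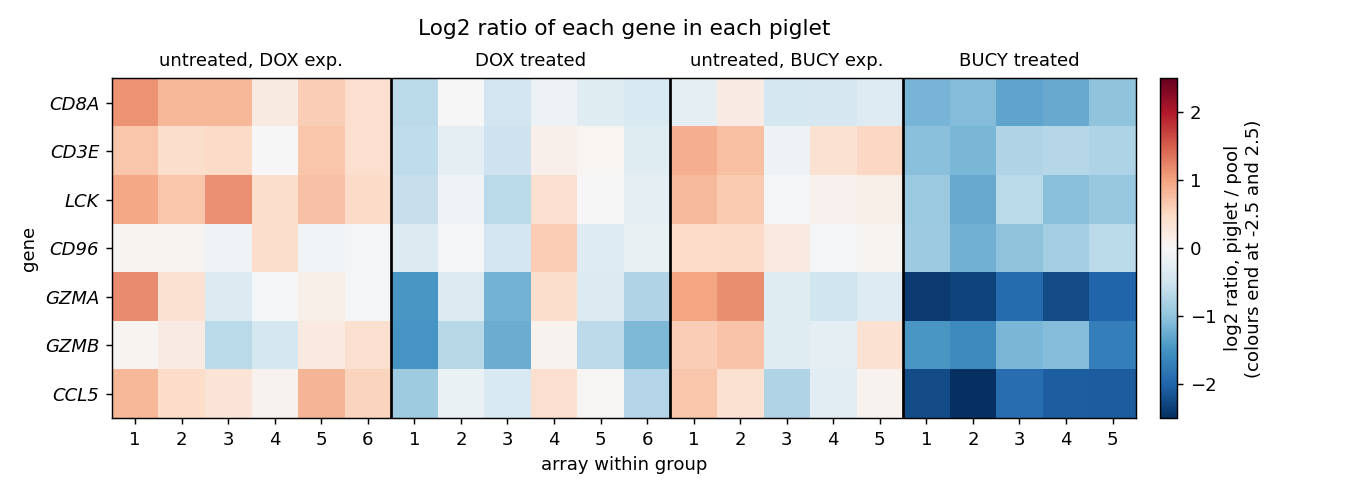
Log2 ratio to the pool (colour) of the 7 genes (rows) in each of the 22 piglets (columns, numbered within the 4 groups). DOX treated piglet 4 is the highest of its group in 6 of 7 rows, and GZMA and CCL5 are the darkest rows in the 5 BUCY treated piglets.

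Across the 22 arrays, which share slides, the pool and the groups, Pearson's r between 2 of the 7 genes ran from 0.67 to 0.94 with a median of 0.87 over 21 pairs. After the group means were subtracted it ran from 0.26 to 0.91 with a median of 0.65. CD3E and CCL5 were then the closest pair at 0.91, followed by CD3E and LCK at 0.82. CD8A and CD96 were the farthest apart at 0.26. The granzymes correlated at 0.75 with each other. These values are descriptions.

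Among 2624 other genes with a symbol, those most like the mean of the 7 over the 22 arrays were CD3G at r = 0.98, PSTPIP1 at 0.94, GPSM3 at 0.94, CD3D at 0.91 and PIK3R5 at 0.88. CD3G and CD3D are chains of the CD3 complex, PSTPIP1 is an adaptor of the actin skeleton in blood cells, and PIK3R5 is a regulatory subunit of a phosphoinositide kinase of leukocytes. After group means were subtracted the most alike included CD3G at 0.89, PSTPIP1 at 0.76, FCER1G at 0.75 and SNCG at 0.75. CD3G went from 0.26 ± 0.31 to -0.70 ± 0.55 after DOX (SD, n = 6 and 6) and from -0.05 ± 0.67 to -1.97 ± 0.38 after BUCY (SD, n = 5 and 5).

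Other genes of T and NK cells were taken from 6 lists of 154 genes, of which 79 had a probe with their symbol and 70 were testable. After DOX 2 of 70 fell, beside 0.480% of all genes, and 0 rose (limma; 20 lower and 4 higher at an unadjusted p under 0.05). They were GZMK, another granzyme, at -0.77 (SE 0.13, limma adjusted p = 0.0022), and STAT4, which carries interleukin-12 signals, at -0.43 (SE 0.10, limma adjusted p = 0.0398). The median of the 70 was -0.19, and 51 were lower. STAT4 missed the threshold without any 1 of DOX treated piglets 1, 2, 3, 5 or 6 or untreated piglets 1, 3, 4 or 6 (limma adjusted p = 0.0562 to 0.11). The count was 9 without DOX treated piglet 4, 4 without DOX treated piglet 5 or BUCY treated piglet 3, and 1 without DOX treated piglet 1, 2, 3 or 6 or untreated piglet 1, 4 or 6. CD3G at -0.96 (limma adjusted p = 0.0873) passed without DOX treated piglet 4 (limma adjusted p = 0.0367).

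After BUCY 19 of 70 fell and 2 rose, beside 9.04% and 8.23% of all genes, with a median of -0.26. The 3 with the smallest p were ID2, a transcription factor that NK and other innate lymphoid cells need, at -1.54 (SE 0.20, limma adjusted p = 5.97e-05), XCL1, a chemokine that activated cytotoxic cells secrete, at -1.66 (SE 0.24, limma adjusted p = 1.56e-04), and CD3G at -1.93 (SE 0.29, limma adjusted p = 2.15e-04). MADCAM1, the vessel ligand of gut-homing lymphocytes, rose by 1.01 (limma adjusted p = 0.0198), and CCL28, an epithelial chemokine, by 1.004 (limma adjusted p = 0.0474). MADCAM1 missed the threshold without BUCY untreated piglet 1 or 2 or treated piglet 2 or 3 (limma adjusted p = 0.0578 to 0.0685). CCL28 missed it without any 1 of 19 of the 22 arrays (limma adjusted p = 0.0522 to 0.156). With median centring both calls ended, MADCAM1 at 0.50 (limma adjusted p = 0.239) and CCL28 at 0.70 (limma adjusted p = 0.142). MADCAM1 also missed the threshold with slide as a fixed block (0.69, limma adjusted p = 0.179). Without BUCY treated piglets 2 and 3, MADCAM1 was at 0.64 (limma adjusted p = 0.279) and CCL28 at 0.70 (limma adjusted p = 0.351). The count of 21 was 13 without BUCY treated piglet 2 and 12, all lower, without BUCY treated piglets 2 and 3.

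The lists are read beside the shares of all genes, 9.04% lower and 8.23% higher after BUCY and 0.480% lower after DOX. By list, 5 of 9 T cell receptor and co-receptor genes fell after BUCY, CD3D, CD3G, CD247, CD2 and ICOS, and 0 of 9 passed after DOX (limma; 7 lower at an unadjusted p under 0.05). CD3D was not well above background in any of the 5 BUCY treated piglets and was at least 1.48-fold lower there (limma adjusted p = 0.00573). Of 12 granule and death-ligand genes only GZMH fell after BUCY, near the share of all genes, and only GZMK after DOX. GZMK was not well above background in any BUCY treated piglet. Of 5 NK receptor genes KLRK1, the activating receptor NKG2D, and TYROBP, a signalling adaptor of other NK receptors, fell after BUCY and 0 passed after DOX (limma; 1 lower at an unadjusted p under 0.05). HCST, the adaptor of NKG2D, was at -0.41 after BUCY (limma adjusted p = 0.0502). Of 11 cytokine and cytokine receptor genes 3 fell after BUCY, of 26 chemokine and homing genes 6 fell and 2 rose, and of 7 transcription factors 2 fell. The named genes beyond the first 3 were listed after their values were seen.

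**Figure D4:**
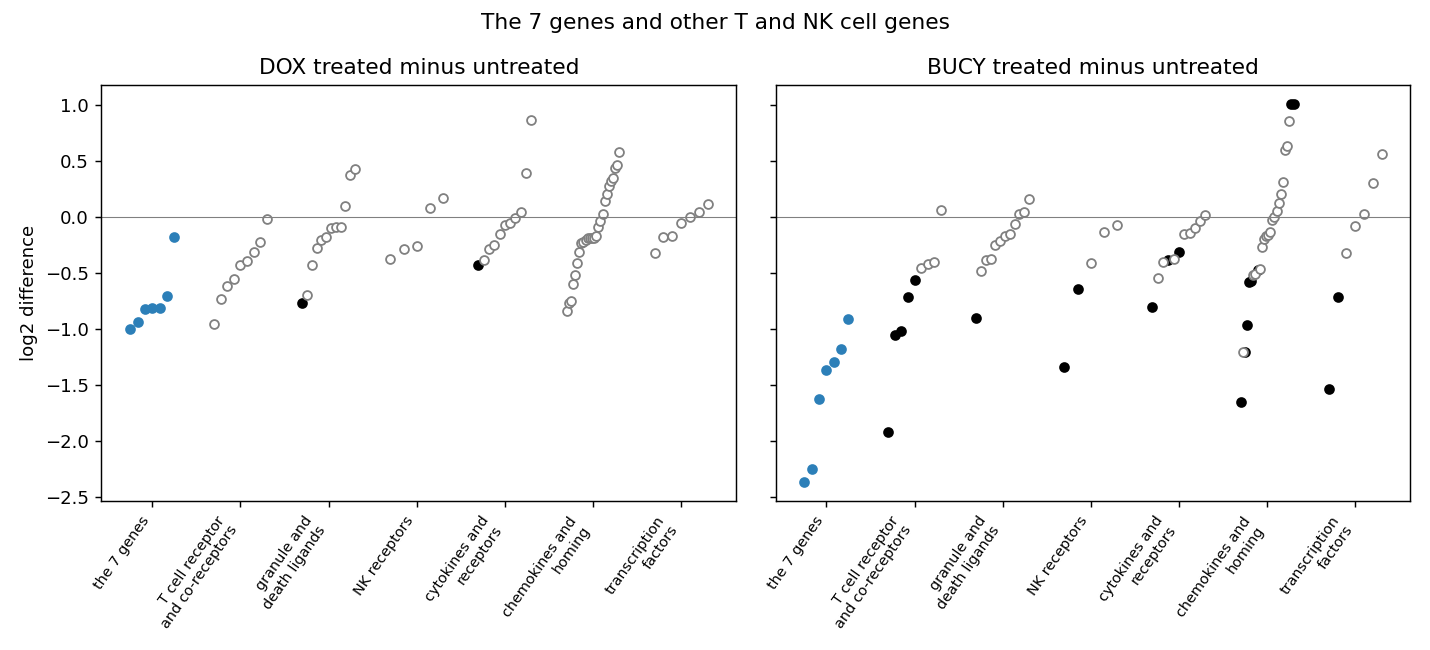
Log2 difference between treated and untreated piglets (vertical axis) for the 7 genes (blue) and 70 other T and NK cell genes by list (horizontal axis), DOX on the left and BUCY on the right. Filled black points passed limma at an adjusted p under 0.05, 2 after DOX and 21 after BUCY, and no test is shown for the blue points.

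Between the drugs 4 of 70 genes passed limma (p-values adjusted over all 24767 genes), all lower after BUCY, beside 2.73% of all genes. ID2 differed by -1.22 (limma adjusted p = 0.00939), GATA3, a factor of T cell development, by -0.82 (limma adjusted p = 0.0149) and XCL1 by -1.24 (limma adjusted p = 0.0247). The 4th, IL18, a cytokine that activates T and NK cells, was at -1.41 (limma adjusted p = 0.0275) and is named after its value was seen. XCL1 missed the threshold without BUCY untreated or treated piglet 2 (limma adjusted p = 0.0523 and 0.0546). Without BUCY treated piglets 2 and 3 the calls of ID2 and XCL1 ended (-0.97 and -0.93, limma adjusted p = 0.0519 and 0.12), and with median centring those of ID2, XCL1 and GATA3 did. XCL1 also missed the threshold with slide as a block (-0.75, limma adjusted p = 0.15). The count was 2 without BUCY untreated piglet 2 or with slide as a block, 7 without BUCY treated piglet 3, and 0 with median centring. Between untreated piglets 25 of 70 genes were lower in the BUCY experiment and 1 was higher, beside 12.2% and 13.0% of all genes. ITGB2, the integrin chain shared by leukocytes, was at -1.05 (limma adjusted p = 9.34e-06), GZMK at -0.80 (limma adjusted p = 1.18e-04) and LAG3, a checkpoint receptor, at -1.05 (limma adjusted p = 1.21e-04). ID2 was higher by 0.64 (limma adjusted p = 0.016) and missed the threshold without BUCY untreated piglet 3 (limma adjusted p = 0.0602).

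CD48, a surface protein of nearly all blood leukocytes and the only gene of a general leukocyte list that could be tested, moved with the 7 genes after either drug. It ran from 0.13 to 0.41 in untreated piglets of the DOX experiment and from -0.42 to 0.00 in treated ones, and from -0.50 to -0.04 and -1.59 to -0.81 in the BUCY experiment. Its difference was -0.42 after DOX (SE 0.11, limma adjusted p = 0.0815) and -0.87 after BUCY (SE 0.13, limma adjusted p = 1.56e-04). After DOX it passed with slide as a fixed block (-0.46, limma adjusted p = 0.0199), with slide as a random block (-0.44, limma adjusted p = 0.0471) and without BUCY treated piglets 2 and 3 (limma adjusted p = 0.04). Between untreated piglets CD48 was at -0.58 in the BUCY experiment relative to the DOX experiment and passed limma, as 12.2% of all genes did in that direction. The median of the 7 genes there was -0.01. The mean of the 7 genes minus CD48 went from 0.12 ± 0.25 to -0.22 ± 0.30 after DOX (SD, n = 6 and 6) and from 0.51 ± 0.23 to -0.20 ± 0.18 after BUCY (SD, n = 5 and 5).

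Markers of other cells moved in both directions beside them. Over all genes 9.04% were lower and 8.23% higher after BUCY, and 0.480% lower and 0.367% higher after DOX. Of 10 macrophage genes CD163 and CD14 rose after both drugs, CD163 by 1.31 and 1.44 (limma adjusted p = 5.07e-04 and 1.68e-04) and CD14 by 1.26 and 0.81 (limma adjusted p = 0.00118 and 0.0138), and AIF1 fell after BUCY. With median centring both CD163 calls and the BUCY call of CD14 ended (limma adjusted p = 0.0783 to 0.182). The macrophage list mean ran from -0.20 to 0.26 in untreated and 0.16 to 0.65 in treated piglets of the DOX experiment, and from -0.94 to -0.38 and -0.80 to -0.10 in the BUCY experiment. Of 5 mast cell and eosinophil genes MS4A2 and MCT7 fell after DOX and MS4A2 after BUCY. MS4A2 was well above background in 3 of 6 DOX treated piglets and in no BUCY treated piglet, where it was at least 1.30-fold lower. Its BUCY call ended with slide as a fixed block (limma adjusted p = 0.113) and with median centring (limma adjusted p = 0.0538). Its DOX call ended with limma's background method that floors low signals (limma adjusted p = 0.149). Of 3 B and plasma cell genes CD79A fell after DOX, while MS4A1, a defining B cell gene, was too dim to test. Of 4 dendritic cell genes XCR1 and CD1.1 fell after BUCY.

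Of 13 enterocyte genes 6 fell after BUCY, beside 9.04% of all genes, TMPRSS15 and DPP4 first. The list mean ran from -2.12 to 0.49 in BUCY treated and from -0.01 to 0.54 in untreated piglets. Of 7 cell cycle genes 5 rose after BUCY, beside 8.23% of all genes, BIRC5 and CCNB1 first. Their list mean ran from -0.66 to 0.36 in treated and -1.54 to -0.91 in untreated piglets. Among neutrophil genes MMP9 rose after BUCY. Of 10 secretory cell genes REG3G rose after both drugs and CHGB and SST fell after BUCY. Of 9 stromal genes COL1A2 fell after DOX and PECAM1 and DES rose after BUCY, and of 2 platelet genes ITGA2B fell after BUCY. Single arrays decided some of these calls. CD79A missed the threshold without DOX treated piglet 1, 3 or 6 or untreated piglet 5 or 6, and MCT7 without DOX treated piglet 1, 2, 3 or 6 or untreated piglet 1, 5 or 6 (limma adjusted p = 0.052 to 0.0672 and 0.0699 to 0.0982). CHGB did so without BUCY untreated piglet 2 or 3 or treated piglet 3 or 5, DES without BUCY untreated piglet 1, 2 or 3 or treated piglet 2 or 3, ITGA2B without BUCY treated piglet 2, and COL1A2 without any 1 of 15 arrays (limma adjusted p up to 0.132 over these). Without BUCY treated piglets 2 and 3, TMPRSS15 was at -1.32 (limma adjusted p = 0.0723) and DPP4 at -0.89 (limma adjusted p = 0.0859), and PECAM1 went from 1.27 (limma adjusted p = 0.01) to 0.64 (limma adjusted p = 0.165). Without those piglets CHGB, DES, ITGA2B and CD1.1 also missed the threshold (limma adjusted p = 0.0887 to 0.312). The 6 arrays whose titles carry a suffix mattered too. Without them PECAM1, DPP4, CHGB, XCR1, CD1.1, MMP9 and TMPRSS15 missed it after BUCY (limma adjusted p = 0.0545 to 0.131). So did COL1A2, CD79A and MCT7 after DOX (limma adjusted p = 0.0583 to 0.102). Of the T and NK cell markers themselves CD40LG, NCR1, FOXP3 and IL2RA were too dim to test. The brightest tested genes of the other lists were XBP1 and BLNK for B cells, LYZ and C1QB for macrophages, MMP9 and LTF for neutrophils, KIT and GATA2 for mast cells, CD86 and CD1.1 for dendritic cells, FABP1 and APOA4 for enterocytes, LYZ and SST for secretory cells, BIRC5 and CDK1 for the cell cycle, DES and ACTA2 for stroma, and ITGA2B and GP9 for platelets. The part of any of these cell types in the levels of the 7 genes was not tested.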

How the data were processed

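The authors deposited scanner output written by Agilent Feature Extraction 10.7.3.1, with a median spot intensity and local background for either dye. Its log10 ratio, computed by that software per the file headers, served as an alternative. Among the deposited columns, other values used were flags for outliers, saturation and signal above background. The authors' deposited value table gives log2 ratios, Cy5 over Cy3. The submitters' processing notes name limma, and the normalisation is not given in the sources used here. Against loess- and quantile-normalised medians its columns gave r of 0.995 to 1.00 and slopes of 0.993 to 1.01, with column medians of 0.0015 to 0.018, which settles direction and scale.

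Median intensities were corrected by normexp (offset 50) and normalised by loess within arrays, control spots at weight 0, in limma 3.58.1 under R 4.3.3. Outlier spots (3 to 52 per array) were dropped, and 0 spots were saturated. This left 91 tested genes without a value on some array, none of them among the 7. Probe accessions were joined to RefSeq genes of Sscrofa11.1, which named 6700 of 43603 probes (15.4%). The brightest probe stood for a gene, or for an accession without a RefSeq gene, tested if above background on at least 5 arrays. One two-sided fit with 4 group means, 18 residual degrees of freedom and 3.38 prior ones, was adjusted by Benjamini-Hochberg over 24767 genes at 0.05. The fit was tested on simulated data. Where a whole group lay under background, the fold is a bound, taken per array from the higher of the lowest signal above background and the probe's own signal. Probe sequences were not used here. Results for some listed genes are not reported here.

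The 7 genes and all lists were chosen with earlier results of these data known. Named list genes are, per comparison, up to 3 per direction by smallest p, for each other cell type the 2 brightest and up to 2 called genes per drug, and the 5 most correlated genes. The replicate is the piglet, and replicate numbers follow array order. Alternatives were other background corrections, normalisations, filters, probe rules, slide and scan-day blocks, and arrays left out. Plots used matplotlib 3.10.9 (Python 3.11.15).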

Additional observations from a re-analysis of the deposited data

Results flagged for a closer look

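In the untreated DOX group, piglet 4 lay far from the others for CD3E, at -0.018 with the nearest piglet at 0.43, and for CD96, at 0.44 with the nearest at 0.07. Those were 2 of 68 group checks over 17 genes, and chance alone gives about 5%. The BUCY difference minus the DOX difference passed limma for ID2 at -1.22, XCL1 at -1.24 and GATA3 at -0.82 (limma adjusted p = 0.00939, 0.0247 and 0.0149). All 3 calls ended with median centring, and those of ID2 and XCL1 also without BUCY treated piglets 2 and 3 (limma adjusted p = 0.0519 and 0.12).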

How the results depend on the processing

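No paired analysis was possible because the labels give no replicate numbers, and those used here follow array order. The lower means of the 7 genes after BUCY kept their direction in each alternative run, with a median of -1.37 that became -2.37 with limma's alternative background correction, which sets low signals to 0.5, and -2.35 with the Agilent log ratio; for the BUCY minus DOX difference the median of -0.81 became -1.55 and -1.16. Leaving out single arrays gave medians of -1.53 to -1.27 after BUCY, -1.01 to -0.69 after DOX, -0.95 to -0.63 between the drugs and -0.25 to 0.12 between untreated groups. The CD8A gap between untreated groups was -1.21 with that correction and no longer passed (limma adjusted p = 0.244). Averaging all probes gave CD8A -0.57 and LCK -0.59 after DOX and -0.48 and -0.68 after BUCY, since their other probes moved little. The LCK difference between the drugs, -0.36, turned to 0.048 with slide as a fixed block. The GZMK difference between the drugs, 0.39 and not past the threshold (limma adjusted p = 0.252), turned to -1.35 with the Agilent log ratio (limma adjusted p = 0.0365).

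Of the other T and NK cell genes, 21 passed after BUCY, 19 lower and 2 higher, and 23 with median centring, all lower. The count was 13 with only probes above background on all arrays and 12 with slide as a fixed block. It was 13 without the 6 arrays whose titles carry a suffix, and 12 without BUCY treated piglets 2 and 3. After DOX 2 passed, 1 with median centring, 0 with probes above background on all arrays, 1 with the mean of all probes, 5 with slide as a fixed or random block, 1 with the scan day blocked, and 6 without BUCY treated piglets 2 and 3. Between the drugs 4 passed, 0 with median centring, 10 with the Agilent log ratio, and 2 with slide as a fixed block, without the suffix arrays or without BUCY treated piglets 2 and 3. Between untreated groups 26 passed, and 17 with probes above background on all arrays. Single arrays left out gave 13 to 27, 1 to 9, 2 to 7 and 21 to 28.

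Over all genes, 4279 passed after BUCY, 2296 with slide as a fixed block, 1481 without the suffix arrays and 1127 without BUCY treated piglets 2 and 3. After DOX 210 passed, 89 with median centring, 349 and 355 with slide as a fixed and a random block, and 499 without BUCY treated piglets 2 and 3. Between the drugs 1456 passed, 941 with that correction, 104 with median centring, 330 without the suffix arrays and 732 without BUCY treated piglets 2 and 3. Between untreated groups 6240 passed, 3014 lower and 3226 higher, and with median centring 3849, 2396 lower and 1453 higher. After BUCY median centring gave 2699 lower and 542 higher, against 2240 and 2039, and moved the median of all genes to -0.12. Single arrays left out gave 2281 to 6290, 119 to 358, 938 to 2392 and 5245 to 6751. The causes were not tested. Scaling between arrays by average intensity leaves log ratios equal by construction. Levels of CD8A, CD96 and GZMA in BUCY treated piglets are limited by signals near background.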
